A study of Saccharomyces cerevisiae with 2 samples.

Results

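The 38 genes described here encode nuclear subunits of the yeast respiratory chain and of the mitochondrial ATP synthase. They were chosen by name and function, and do not cover every such subunit. They were all found among the 6002 nuclear protein-coding open reading frames (ORFs) of the R64 annotation. They comprise 4 genes of succinate dehydrogenase, 9 of the cytochrome bc1 complex, 2 of cytochrome c, 9 of cytochrome c oxidase and 14 of the ATP synthase and its inhibitor. The cells came from 2 biological replicate cultures of 1 Saccharomyces cerevisiae strain, BY4741 with the SET2 gene replaced by kanMX4. SET2 encodes a histone methyltransferase that travels with RNA polymerase II. The cultures grew to mid-log phase at OD 1 in YPAD, a rich medium, with 1% glucose. No wild type is part of the series, so nothing below can be set against cells that have SET2.

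The enzymes of the respiratory chain pass electrons from succinate or NADH through ubiquinone, the bc1 complex and cytochrome c to oxygen, and pump protons out of the mitochondrial matrix. ATP synthase lets the protons back and makes ATP. In yeast on glucose many of these nuclear genes are known to be repressed, and the Hap complex, made of the products of HAP2, HAP3, HAP4 and HAP5, binds CCAAT boxes in their promoters. Some subunits exist as an aerobic and a hypoxic form encoded by separate genes.

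RNA was measured by TIF-Seq (transcript isoform sequencing), in which the cap site and the poly(A) site of 1 molecule are read together. Each deposited value is a count of molecules with 1 start and 1 end, and the authors' single column pools both cultures, so there is no spread between replicates. The table holds 6074514 molecules in 510263 distinct start and end pairs, called isoforms here. A count of 0 allows up to 3 molecules, or 4.94e-05% of the total, as a one-sided limit. Intervals are 95% intervals with a lower and an upper bound, on which scale a count of 0 reaches up to 3.69 molecules, and they cover counting error only, since copies made by PCR cannot be told from separate molecules. Over SET2 itself there were 0 molecules on either strand. A full-ORF molecule starts at or before the start codon and ends at or past the stop codon. The median molecule was 853 nt long and 30.5% of all molecules were over 1000 nt, so long genes are covered less often. Counts of genes of different length are therefore set against the like-length median, the median of the other ORFs whose length, from start to stop codon, lay within 20% of the gene's own.

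CCAAT boxes were gathered in a narrow stretch before the start sites that TIF-Seq mapped. Of the 35 genes with at least 20 full-ORF molecules, 34 had the letters CCAAT on either strand in the 300 nt before their most used start. Among all 3037 nuclear ORFs with as many molecules, the share was 41.6%. From 101 to 150 nt before the start, 24 of the 35 genes (68.6%) had a match, against 8.20% of all these ORFs. In the other windows of 50 nt, between 2 and 7 of the 35 had one. The match nearest to the start lay a median of 119.5 nt before it in the 34 genes, with quartiles of 102 and 143.5 nt, and 144 nt in the 1263 ORFs with a match. In the 101 to 150 nt window, 21 of 28 matches in these genes read CCAAT on the strand of the gene, and 136 of 260 in all ORFs. These windows were set after the start sites had been looked at, and Hap targets are known to be common among genes of this kind.

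**Figure D1:**
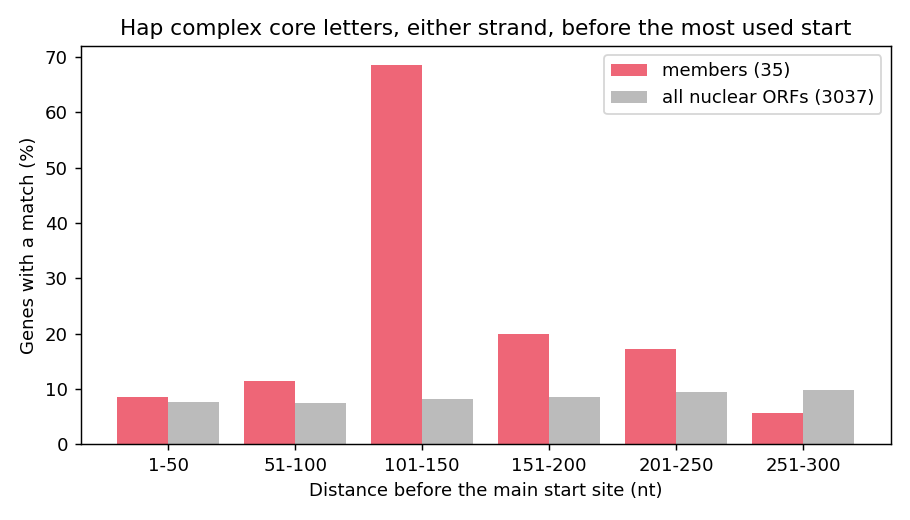
Share of genes (%) with the Hap complex core letters in each 50 nt window before the most used start of their full-ORF molecules, for 35 genes of the chain and the ATP synthase and for 3037 nuclear ORFs. The bar at 101 to 150 nt stands at 68.6% against 8.20%.

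Boxes in the 101 to 150 nt window are shown for genes from each complex, and were picked for lying there, so their spacing is no further evidence. Where a gene had several matches in that window, the one nearest to the start is shown. Each line is the gene's strand, with the match in capitals. ATTGG is the same box on the other strand. Coordinates are in R64, counted from 1.
SDH4 (chrIV:817709-817729, plus strand): gcattgagCCAATcgctgctg
QCR2 (chrXVI:919188-919208, plus strand): ccaacgaaCCAATagaaggcc
RIP1 (chrV:107005-107025, plus strand): ataacggaCCAATcagcgttt
COX4 (chrVII:150770-150790, minus strand): actgtccaCCAATaagatcag
COX5A (chrXIV:531572-531592, plus strand): cgtttgtgATTGGccctacgt
COX7 (chrXIII:779277-779297, minus strand): agtacttgATTGGctacgccg
ATP1 (chrII:36575-36595, plus strand): ggccctggCCAATcagatccc
ATP4 (chrXVI:408921-408941, minus strand): atattgaaCCAATcacgacgc
ATP5 (chrIV:1059095-1059115, minus strand): ggtgctggCCAATaagatgct
ATP16 (chrIV:442857-442877, plus strand): atgcccagCCAATcaaagcgc

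The box shown lay 127 nt before the main start in SDH4, 121 nt in QCR2, 142 nt in RIP1, 144 nt in COX4, 110 nt in COX5A and 126 nt in COX7. In the ATP synthase genes it lay 146 nt before the main start of ATP1, 118 nt in ATP4, 143 nt in ATP5 and 117 nt in ATP16. In ATP1 and ATP5 it was not the nearest match: ATP1 also had matches at 50 and 184 nt, and ATP5 at 13 and 206 nt. COX5A had a further match at 135 nt and ATP4 at 148 nt. Measured from the start codon, the boxes of ATP1 and COX4 lie much farther out, since these genes have the longest leaders of the set. In the 500 nt before the start codon, 35 of all 38 genes held the letters, against 62.4% of 6000 ORFs, and COX4, CYC1 and CYT1 did not. CYC1 was the gene without a match in the 300 nt before the main start. Other searched letters stood nearer the level of all ORFs: ATTGTT, the core bound by the hypoxic repressor Rox1, was in 21 of 38 genes (55.3%, against 48.9%) and TATAAA in 23 (60.5%, against 60.5%). The consensus CGGNNNTANCGG of the haem-responsive activator Hap1 was in QCR6 only, 1 of 38, against 0.350% of all ORFs. All searches covered both strands.

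The bases at the start sites were then read. The most used start had a pyrimidine at the base before it and a purine as its first base in 34 of the 35 genes (97.1%, exact binomial interval 85.1% to 99.9%), and in 95.3% of the 3037 ORFs. The first base was an A in 29 of the 35 (82.9%), and in 82.0% of the 3037 ORFs. The lines below run from 14 nt before the main start to 5 nt after it, with the base before the start and the start itself in capitals. They show a strongly used site in each complex and the aerobic and hypoxic genes.
ATP18 (chrXIII:104216-104235, minus strand): gttgagaagagttCGactca
ATP15 (chrXVI:30035-30054, plus strand): ttctaagaaacatCAacagt
QCR2 (chrXVI:919307-919326, plus strand): tttttaacagcagTGtgctc
SDH4 (chrIV:817834-817853, plus strand): aaagatagaaggaTAaatat
COX12 (chrXII:225217-225236, minus strand): agaatacataaagTAtcttt
COX5A (chrXIV:531680-531699, plus strand): gcaagcaatgcacCAaacac
COX5B (chrIX:155177-155196, plus strand): caggaaactttcaCAatgga
CYC1 (chrX:526275-526294, plus strand): cagcataaattacTAtactt
CYC7 (chrV:80159-80178, minus strand): gtggccgcaagggGCaaaga

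CYC7 was the exception, and its main start rests on 11 molecules. At ATP18, 5797 molecules began at the site shown, which was 75.9% of the full-ORF molecules of the gene. At SDH4 the site took 363 molecules (76.9%) and at QCR2 it took 1069 (70.5%). CYC1 lay at the other end, with 56 molecules at its most used start (15.9%), and COX13 with 69 (13%). The median over the 35 genes was 36.6%, and 36.0% over the 3037 ORFs.

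The genes were then counted complex by complex. All 38 together had 35818 sense molecules overlapping the coding span, 0.590% of the table, and 33484 of these were full-ORF molecules. The median was 456.5 full-ORF molecules per gene, against 21 over all 6002 ORFs. Beside ORFs of like length, 28 of the 38 genes lay above the median, and the median ratio to it was 4.58. The matching share and ratio over all ORFs were not computed. Among the shortest genes the comparison at like length is wide, since the median of like-length ORFs was 8 molecules for ATP18 and 196 for COX12.

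**Figure D2:**
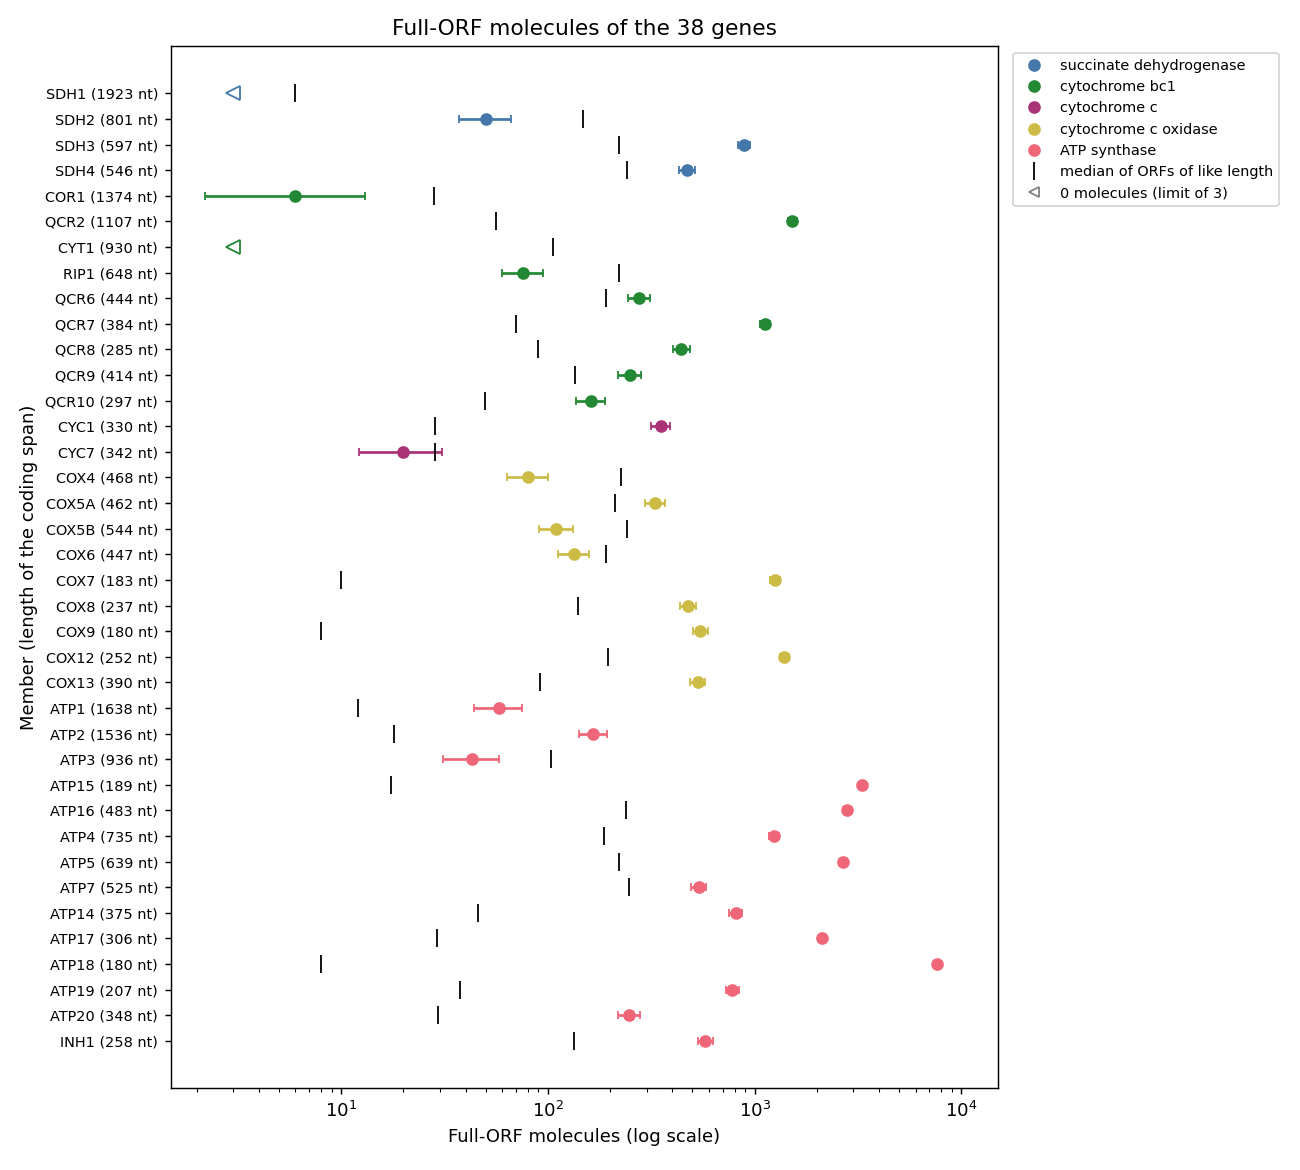
Full-ORF molecules of each of the 38 genes on a log scale, with exact Poisson intervals, coloured by complex. Black ticks mark the median of ORFs of like length; SDH1 and CYT1 are drawn at the one-sided limit of 3 molecules because none was counted.

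Succinate dehydrogenase oxidises succinate and feeds electrons to ubiquinone. Its genes had 1490 sense molecules, with a Poisson interval of 1415 to 1568. SDH3, a membrane anchor that holds the haem, had the most, 892 full-ORF molecules (interval 834 to 953), which was 4.05 times the like-length median. SDH4, the other anchor, had 472 (430 to 517), beside a like-length median of 240.5. SDH2, the iron-sulfur subunit, had 50 (37.1 to 65.9), or 0.338 times. SDH1 (YKL148C, 1923 nt), the flavoprotein that binds succinate, had 0 full-ORF molecules and 2 sense molecules, where like-length ORFs had a median of 6 full-ORF molecules and 26.8% of them had none. The membrane anchors thus lay above and SDH2 below their like-length medians.

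The bc1 complex passes electrons from ubiquinol to cytochrome c. Its 9 genes had 4152 sense molecules (4027 to 4280). QCR2, a core subunit, led with 1517 full-ORF molecules (1442 to 1595), which was 27.1 times the like-length median. COR1, the other core subunit, had 6 (2.20 to 13.1), or 0.214 times, so the pair lay on opposite sides of their like-length medians. QCR7, a small subunit, had 1122, at 16.0 times. QCR8, QCR6, QCR9 and QCR10, also small subunits, had 441, 276, 249 and 161 full-ORF molecules, beside like-length medians of 90, 190, 134.5 and 49.5. The coding spans of QCR9 and QCR10 hold an intron, which is part of the length used for these medians. RIP1, the Rieske iron-sulfur protein, had 76 (59.9 to 95.1), or 0.345 times. CYT1 (YOR065W, 930 nt), which encodes cytochrome c1, had 0 full-ORF molecules, as did 10.2% of the 1160 like-length ORFs, whose median was 105.5. Of its 9 sense molecules, 8 started just inside the annotated ORF, 5 of them 67 nt in and 3 of them 13 nt in.

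Cytochrome c oxidase passes the electrons to oxygen, and its catalytic core is encoded in the mitochondrion. Of its nuclear genes, the 9 in the set had 5204 sense molecules (5064 to 5347). COX12 had the most, 1392 full-ORF molecules (1320 to 1467), 7.10 times the like-length median, and COX7 had 1251, beside a like-length median of 10. COX9, COX13 and COX8 had 546, 529 and 476, beside medians of 8, 92 and 140. The share of like-length ORFs with fewer full-ORF molecules was 81.4% for COX7, 77.1% for COX9, 71.7% for COX13 and 60.1% for COX8. COX4 had the fewest, 80 (63.4 to 99.6), or 0.356 times. COX6, with 134 full-ORF molecules, and COX5B also lay below their like-length medians of 190 and 241. The other 6 genes lay above theirs, COX5A among them with 329 beside 211.

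ATP synthase makes ATP in a catalytic head, F1, which a stalk links to a membrane ring encoded in the mitochondrion. Of its nuclear genes, the 14 in the set had 24532 sense molecules (24226 to 24841), of which ATP18 alone gave 7683. The subunit gene TIM11, with 8260 sense molecules, is outside the set and its molecules are not in this sum. Of the 14, 13 lay above their like-length medians, and ATP3 did not. ATP18, a small membrane subunit, had the most full-ORF molecules of all 38 genes, 7640 (7470 to 7813), and ranked 144 among all nuclear ORFs, beside a like-length median of 8. A single isoform of ATP18 held 3102 of these molecules, 40.6%. In the head, ATP15 (the epsilon subunit) had 3322, ATP16 (delta) had 2788, ATP2 (beta) had 166, ATP1 (alpha) had 58 and ATP3 (gamma) had 43 (31.1 to 57.9). ATP1 and ATP2 have ORFs of 1638 and 1536 nt, and their counts were 4.83 and 9.22 times the like-length medians. ATP3, at 936 nt, was at 0.415 times. The like-length medians of ATP15 and ATP16 were 17.5 and 237.5. In the stalk and the membrane part, ATP5 (the oligomycin-sensitivity protein) had 2671, ATP17 had 2128, ATP4 had 1236, ATP14 had 810, ATP19 had 781, ATP7 had 536 and ATP20 had 247. In the same order their like-length medians were 220, 29, 187, 46, 37.5, 246 and 29.5. INH1, the inhibitor of ATP hydrolysis, had 577, beside 133.5.

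The aerobic and hypoxic genes were set side by side, to ask which form was present in the glucose cultures. COX5A and COX5B encode alternative forms of subunit V of cytochrome c oxidase, with coding spans of 462 and 544 nt. COX5A had 329 full-ORF molecules and COX5B had 110, so COX5A made up 74.9% of the pair (Wilson interval 70.7% to 78.8%). Over all sense molecules the counts were 350 and 203, and the share was 63.3% (59.2% to 67.2%). The COX5B span holds an intron, and 57 of its sense molecules started just inside the span, so the full-ORF share leaves them out. CYC1 and CYC7 encode the forms of cytochrome c, with spans of 330 and 342 nt. CYC1 had 352 full-ORF molecules and CYC7 had 20, so CYC1 made up 94.6% (91.8% to 96.5%). The like-length median of both was 28.5, which CYC7 lay below. The aerobic gene was thus the more counted in both pairs, and the hypoxic gene was present in each.

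**Figure D3:**
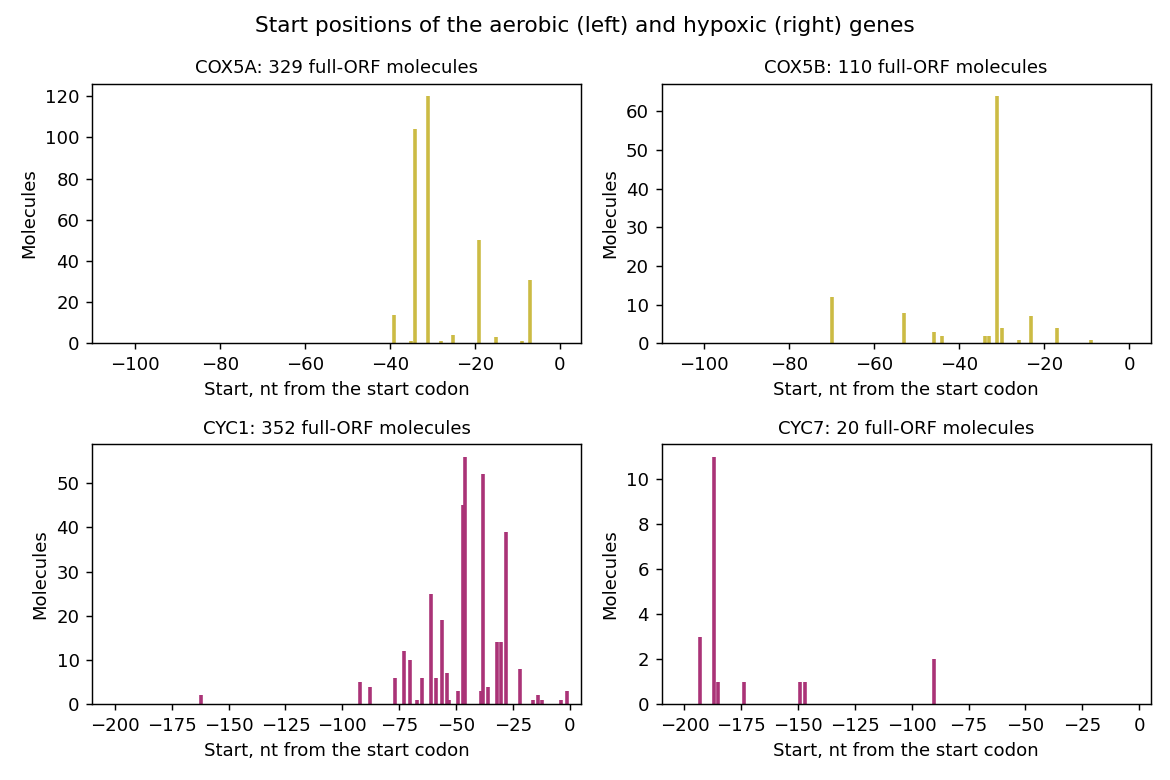
Full-ORF molecules by start position, in nt from the start codon, for the aerobic genes COX5A and CYC1 and the hypoxic genes COX5B and CYC7; the vertical scale differs between panels. COX5A and COX5B share a main leader of 31 nt, while CYC1 starts are spread around 46 nt and CYC7 starts lie mostly at 187 nt.

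The architecture differed within each pair. COX5A and COX5B both had a main start 31 nt before the start codon, at positions 531694 and 155191. COX5A starts fell at 31, 34, 19 and 7 nt with 120, 104, 50 and 31 molecules, in 1 cluster. COX5B had 98 molecules in a cluster around 31 nt and 12 at 70 nt. Their ends lay apart: the median COX5A molecule ended 268 nt past the stop codon and the median COX5B molecule 34 nt past it. COX5A ends fell in 4 clusters, while 74 of the 110 COX5B molecules ended around 34 nt (67.3%, 58.1% to 75.3%). CYC1 starts spread over 29 positions with a median leader of 46 nt. Of its 352 molecules, 347 ended in 1 cluster, with 226 at 174 nt and 94 at 197 nt. Sparsely used positions between these sites joined them, so the number of end clusters is not compared between CYC1 and CYC7. CYC7 had a median leader of 187 nt and ends at 87 and 111 nt. Of the 20 CYC7 molecules, 15 started around 187 nt, 2 around 149 nt and 2 at 90 nt.

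COX5B has an intron after the first base of its start codon, from 155223 to 155310 on chromosome IX. Of its 203 sense molecules, 57 started from 1 to 100 nt inside the coding span, 20 of them in the intron and 37 after it. A stretch from 5 nt before the end of the intron to 15 nt after it held 41 of these starts. A further 36 molecules started more than 100 nt inside. Of all 38 genes' sense molecules, 1.29% started just inside the coding span, and 1.60% of those of all ORFs.

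Other aerobic and hypoxic pairs outside the chain were counted for comparison. The ADP/ATP carrier genes PET9 (aerobic) and AAC3 (hypoxic) had 492 and 145 full-ORF molecules, a PET9 share of 77.2% (73.8% to 80.3%), with like-length medians of 85.5 and 105. HYP2 and ANB1, which encode forms of translation factor eIF5A, had 43535 and 7. These genes are nearly identical, so the placing of reads between them is uncertain. HMG1 and HMG2, genes of sterol synthesis with ORFs of 3165 and 3138 nt, had 1 and 0 full-ORF molecules, too few for a share. Over all sense molecules they had 122 and 123, so the aerobic gene HMG1 made up 49.8% (43.6% to 56.0%) and was not ahead in that pair.

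The leaders of the 35 genes had a median of 60 nt (order-statistic interval 46 to 79), taking each gene's median, against 41 nt (40 to 42) over the 3037 ORFs. The 35 genes had shorter coding spans than these ORFs, and leaders were not compared at like length. The longest median leaders were those of COX4 (467 nt), ATP1 (320 nt) and ATP2 (193 nt). COX4 is known to have an intron in its leader, and because TIF-Seq reads only the ends, 467 nt is the distance on the genome with that intron included. The shortest were those of ATP15 (27 nt), COX5A and COX5B (31 nt each). Leaders of ATP5, a gene with 2671 full-ORF molecules, were also long, with a median of 146 nt and 5th and 95th percentiles of 118 and 180 nt.

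**Figure D4:**
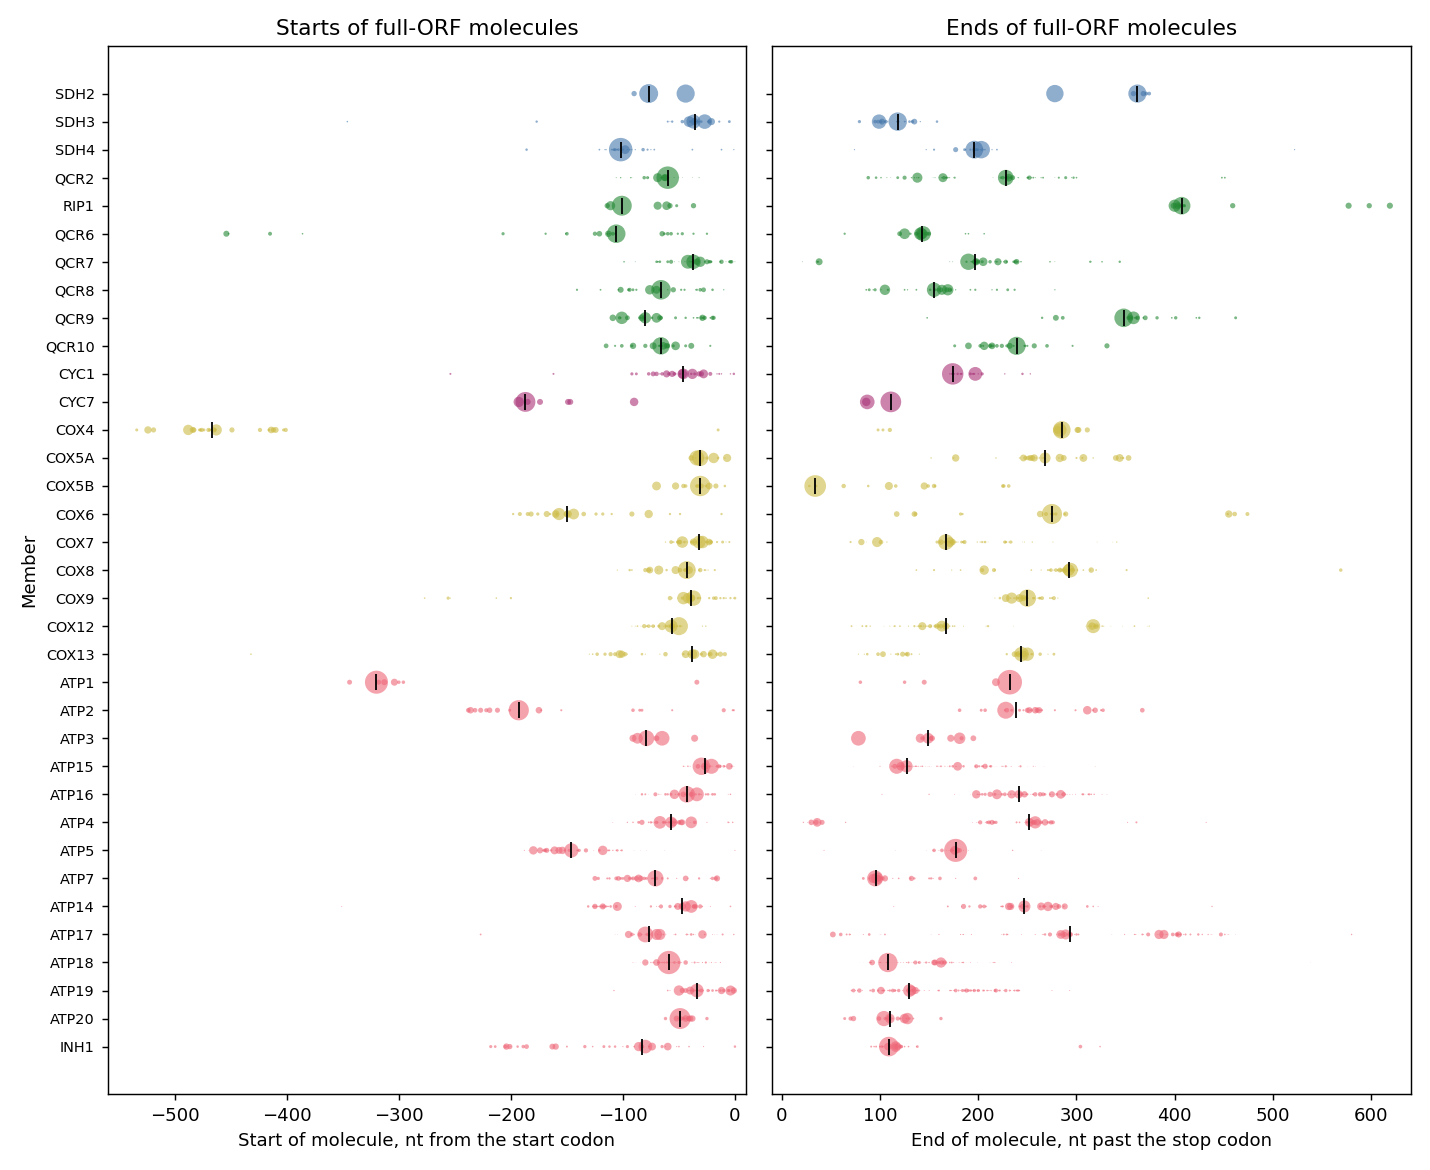
Starts (left, nt from the start codon) and ends (right, nt past the stop codon) of the full-ORF molecules of 35 genes; the area of a point is the share of the gene's molecules and the black ticks are medians. COX4 and ATP1 stand out with medians of 467 and 320 nt on the left and RIP1 with 407 nt on the right; 42 starts beyond 560 nt and 3 ends beyond 640 nt are not drawn.

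Ends lay farther out than the median of ORFs of all lengths. The median 3′ UTR over the 35 genes was 197 nt (155 to 244), against 117 nt (114 to 120) over all 3037 ORFs, and 29 of the 35 lay above that value. A median 3′ UTR over 200 nt was found in 17 of the 35 (48.6%) and in 457 of the 3037 ORFs (15.0%). The 35 genes were shorter, with a median coding span of 414 nt against 924 nt, and UTRs were not compared at like length. Long molecules are counted less often, and how far length bears on this difference was not tested. The longest were those of RIP1 (407 nt), SDH2 (362 nt) and QCR9 (348 nt). COX5B (34 nt), ATP7 (96 nt) and ATP18 (108 nt) had the shortest. Among the longer ones, ATP17 molecules ended in clusters around 289 nt (913 molecules, 42.9%) and 384 nt (961 molecules, 45.2%). COX12 ends fell around 163 nt (746 molecules, 53.6%) and 317 nt (594 molecules, 42.7%). ATP4, the b subunit of the stalk, had 284 molecules (23.0%) ending around 36 nt and 773 (62.5%) around 258 nt. COX7 had 290 (23.2%) around 97 nt and 856 (68.4%) around 167 nt. Of the 35 genes, 19 had 2 or more end clusters (54.3%), against 46.1% of all ORFs. A cluster joined positions no more than 10 nt apart and held at least 10% of the gene's full-ORF molecules.

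Start clusters divided the genes into 22 with 1, 9 with 2 and 4 with 3. Clusters in the plural were thus found in 13 of 35 (37.1%), and in 36.5% of all ORFs. These counts rest on the 10 nt gap: the median number of start clusters per gene was 1, and with gaps of at most 5 nt it was 2. INH1 had 392 molecules around 80 nt, 63 around 160 nt and 116 around 204 nt. QCR9 had 120 around 80 nt, 82 around 101 nt and 47 around 29 nt. ATP14 had 558 around 39 nt and 247 around 105 nt, and COX13 had 359 around 38 nt and 146 around 103 nt.

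In several of these genes the start used set whether the leader held an upstream ATG, a search added after the starts had been seen. In ATP14 an ATG lies 96 nt before the start codon, in frame, and is followed by a stop codon 90 nt before the start codon. It was in 248 of 810 full-ORF molecules (30.6%), which include the cluster at 105 nt and not the one at 39 nt. QCR9 has such an ATG at 90 nt, in frame, with a stop codon 75 nt before the start codon. It was in 82 of 249 molecules (32.9%), those of the cluster at 101 nt. In COX13 an ATG at 71 nt, out of frame, was in 154 of 529 molecules (29.1%), and the cluster at 38 nt was without it. COX5B has an ATG at 30 nt, 1 base after the main start, followed by a stop codon 24 nt before the start codon. It was in 97 of 110 molecules (88.2%, 80.8% to 93.0%). COX4 leaders held an ATG in 79 of 80 molecules, read from genome letters that include the intron. In 18 of the 35 genes no full-ORF molecule had an upstream ATG, and no matching count over all ORFs is given here. Counted by gene, most full-ORF molecules had one in 2 of the 35 (5.71%), COX4 and COX5B. Among the 3037 ORFs this held for 369 (12.2%). Over the 35 genes together, 3.69% of molecules had one, against 3.60% over all ORFs. That pooled share leans on the most counted genes, since ATP18 gave 443 of the 1236 molecules with an upstream ATG.

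Because both ends come from 1 molecule, the end used from each start could be read. ATP2 starts around 236 nt ended around 228 nt in 38 of 43 molecules (88.4%, 75.5% to 94.9%) and around 311 nt in 1. Starts around 193 nt ended around 228 nt in 65 of 97 (67.0%, 57.2% to 75.6%) and around 311 nt in 23. Those 23 molecules came from 4 isoforms, and 1 of these isoforms held 14 of them. In QCR8, the ubiquinol-binding subunit, molecules starting around 66 nt ended around 105 nt in 84 of 389 (21.6%, 17.8% to 25.9%), and those starting around 102 nt in 1 of 47 (2.13%, 0.377% to 11.1%). COX13 showed little difference, with 14.8% (11.5% to 18.8%) of molecules from the nearer start and 17.8% (12.5% to 24.8%) from the farther one ending around 103 nt. In SDH2, all 25 molecules starting around 77 nt ended around 362 nt, and 21 of 23 starting around 44 nt ended around 278 nt. Those SDH2 counts came from 2 isoforms and 1 isoform, and copies made by PCR cannot be told apart from separate molecules there.

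Internal starts were asked about because loss of Set2 is known to permit initiation inside genes. Molecules starting more than 100 nt inside the ORF and reaching its stop codon made up 4.99% (4.77% to 5.22%) of these plus full-ORF molecules in the 38 genes. In the 33 genes of at most 1000 nt the share was 3.53% (3.33% to 3.73%), against 4.96% (4.94% to 4.98%) in all ORFs of that length. That pooled share leans on ATP18 and ATP15, with 7640 and 3322 full-ORF molecules and 0 internal-start molecules each. Their spans of 180 and 189 nt leave little room for such starts. The share without them was not computed, so no difference from all ORFs is read from it. In the 5 longer genes the internal-start share was 25.5%, and without QCR2, which held most of their molecules, it was 70.3%. All longer ORFs together gave 36.2%. Among genes with at least 50 sense molecules, the highest shares were those of ATP1 (76.6%), ATP2 (67.5%) and RIP1 (26.2%), where the medians of like-length ORFs were 74.0%, 67.0% and 9.64%. QCR2, at 1107 nt, had 3.44%, where like-length ORFs had a median of 38%. ATP4 had the most internal-start molecules, 360, a share of 22.6% against 12.8%.

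Antisense molecules over the coding spans were few. There were 372, which was 1.03% (0.929% to 1.14%) of sense plus antisense molecules, and 7.28% over all ORFs when counted the same way, transcripts that run in from a neighbour included. In ORFs of at most 1000 nt the shares were 1.08% (0.980% to 1.20%) and 4.78%. Antisense molecules were found in 22 of the 38 genes (57.9%), against 75% of all ORFs. Among genes of at most 1000 nt they were found in 20 of 33 (60.6%), against 70.1% of all ORFs of that length. INH1 had the most, 94 (13.8% of its molecules), followed by CYT1 with 51 and ATP18 with 38. In CYT1 antisense molecules outnumbered the 9 sense molecules. None of the INH1 and CYT1 antisense molecules covered a whole ORF on their own strand. QCR6 shared molecules with its upstream neighbour: 29 of its 276 full-ORF molecules also covered the whole of PHO4, a regulator of phosphate genes. A further 75 QCR6 molecules began upstream of the ORF but ended within it, 42 of them at a single pair of positions.

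Other nuclear genes of the chain were counted from a list of 40 that comprises alternative dehydrogenases, assembly factors and further subunits. Of these, 23 lay above their like-length medians, with a median ratio of 1.94. The share of all ORFs above such medians was not computed, so the 23 are not read as an excess. At least 20 full-ORF molecules were found in 30 of the 40, and in 3037 of all 6002 ORFs. TIM11, a dimer subunit of the ATP synthase, had the most, 8065, beside a like-length median of 90. STF2, which acts with INH1, had 5308, beside 140. NDI1 and NDE1, which oxidise NADH in place of a proton-pumping complex, had 6 and 23 full-ORF molecules, beside like-length medians of 18 and 11.5. The paralogues of succinate dehydrogenase subunits, YJL045W, SHH3 and SHH4, had 0, 5 and 18, beside like-length medians of 7, 229 and 247.5, and none lay above its own. Among the regulators, HAP3 lay above its like-length median, with 307 full-ORF molecules beside 168.5. HAP4, with 15 beside 12, was close to its own, and no interval was computed for this small count. HAP2, also with 15, lay below its median of 147, as did HAP5 (96 beside 198), ROX1 (26 beside 56.5) and MOT3 (0 beside 22). HAP1 (YLR256W, 4509 nt) had 0, as did the median ORF of its length, with 2 sense and 77 antisense molecules.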

How the data were processed

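TIF-Seq libraries of 2 cultures of 1 group (set2, glucose) were analysed from 1 table. Per the file headers it gives chromosome, strand, start, end and a count; the deposited counts are whole numbers, used with no scaling. The submitters' processing notes name build R64, CASAVA and Novoalign 2.07.10, with no roles; filters, removal of PCR copies, treatment of repeated sequence and how the authors pooled the cultures are not given in the sources used here. Sample columns left unused numbered 0.

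Molecules overlapping each coding span (start to stop codon, introns included) were counted on both strands, also for all 6002 nuclear ORFs of the RefSeq R64 annotation, the same build. Leader, end and cluster values need 20 full-ORF molecules. Intervals are Wilson, exact binomial, exact Poisson or order-statistic. With 1 pooled column no test between groups was made. Sequences and letters come from the RefSeq R64 genome. Scripts used Python 3.11.15, pandas 2.3.3, numpy 2.4.6, scipy 1.17.1 and matplotlib 3.10.9, and were tested on simulated isoforms over 180 ORFs, all recovered.

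The genes and lists were chosen with earlier results of these data known. All members are described; values are given in full for the hypoxic and aerobic genes, the most and least counted gene of each complex, and the 3 highest for leaders, ends, internal starts and antisense molecules.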

Additional observations from a re-analysis of the deposited data

How the results depend on the processing

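In all, 51 alternatives were computed for 14 values, 8 of them chosen after seeing the data; 21 stayed within the counting interval and 30 moved beyond it. Both median UTR lengths and the share with a CCAAT box before the main start stayed within it under every alternative run. The median number of start clusters per gene, 1 with an interval of 1 to 2, was 2 with gaps of at most 5 nt and 1 under the other alternatives run. The cause was not tested for the others, except where the alternative itself removes molecules. No leave-one-out value could be computed, since both cultures share a column, and no paired analysis was possible because there is 1 group.

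In the order succinate dehydrogenase, bc1, cytochrome c, cytochrome c oxidase and ATP synthase, counting each isoform once gave 168, 624, 88, 911 and 2595; full-ORF molecules only gave 1414, 3848, 372, 4847 and 23003; leaving out the most counted gene (SDH3, QCR2, CYC1, COX12, ATP18) gave 563, 2577, 21, 3743 and 16849. Isoforms with at least 2 molecules gave 3925 for bc1, 4897 for cytochrome c oxidase and 23664 for ATP synthase.

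The COX5A share was 63.3% over all sense molecules and 81.8% without the most counted isoform of each gene. The CYC1 share was 97.2% in that case and 89.6% with each isoform counted once. The internal-start share was 4.44% for isoforms with at least 2 molecules, 14.1% with each isoform counted once, 5.48% from 50 nt, 4.29% from 200 nt and 4.16% without ATP4. The antisense share was 2.79% with each isoform counted once and 0.783% without INH1. The initiator share was 100% at main starts of at least 30 molecules. Genes with few molecules (CYC7, COR1, ATP3, SDH2) have wide intervals.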

Other observations

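The letters TGTANATA, which the RNA-binding protein Puf3 of mitochondrial transcripts is known to bind, were looked for on the gene's strand in the 200 nt after the stop codon, a search added after the 3′ ends had been seen. They were found in 5 of the 38 genes (13.2%), against 14.1% of all 6002 ORFs. The genes were SDH1, COX8, ATP1, ATP18 and ATP19. In the 4 of these with full-ORF molecules, every such molecule ended past the match: 58 of ATP1, 476 of COX8, 7640 of ATP18 and 781 of ATP19. The matches in COX8 and ATP18 are shown with the letters in capitals.
COX8 (chrXII:909684-909703, minus strand): gatgtgTGTACATAgcgtgc
ATP18 (chrXIII:103906-103925, minus strand): tatgttTGTATATAgaaata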
